A study of Mus musculus with 6 samples.

Results

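The mir-30 family comprises 6 of the 1006 miRNA precursor entries measured in this series, namely mir-30a, mir-30b, mir-30c-1, mir-30c-2, mir-30d and mir-30e. They were taken by their names. Small RNA was sequenced from 6 libraries of 4 conditions. Myo-EVs (2 libraries) are extracellular vesicles that C2C12 cells, a mouse myoblast line, released into medium with vesicle-depleted serum over 48 hr. FFSS-Myo-EVs (2 libraries) were released by C2C12 cells under fluid flow shear stress (FFSS), applied on an orbital shaker. OB (1 library) are mouse primary osteoblasts and BM (1 library) are mouse primary bone marrow cells, both labelled as unstressed controls. According to the labels, the mice had a mixed background with 81.25% of C57BL/6J and 18.75% of 129/SvJ and an age of 8 to 10 weeks, whereas the methods describe osteoblasts pooled from the calvariae of several neonatal males. The same strain mix is entered for the C2C12 libraries, although these come from a cell line, and the growth text of the labels names vitamin D and dexamethasone but no FFSS.

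MicroRNAs guide Argonaute proteins to target mRNAs mainly through the seed, bases 2 to 8 of the mature strand, and lower the translation and stability of those mRNAs. The miR-30 family is known for acting on Runx2, the transcription factor that drives osteoblast differentiation, and on Smad1, which carries the signal of bone morphogenetic proteins (BMPs) to the nucleus. Forced expression of miR-30 members is known to restrain BMP-driven osteoblast differentiation. The family is also abundant in skeletal muscle and heart.

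The 6 genes lie in 3 genomic clusters of 2 genes each. In the GENCODE annotation of GRCm38, Mir30a (chr1:23272269-23272339) and Mir30c-2 (chr1:23291701-23291784) lie on the plus strand, 19361 bases apart. Mir30a overlaps no other annotated gene, and Mir30c-2 lies in an exon of the long noncoding gene Gm27028. Mir30d (chr15:68341208-68341289) and Mir30b (chr15:68337415-68337510) lie on the minus strand, 3697 bases apart, with Mir30d inside an exon of the long noncoding gene Gm20732 and Mir30b partly in an exon of the noncoding gene Gm26621. Mir30e (chr4:120772606-120772697) and Mir30c-1 (chr4:120769534-120769622) lie on the minus strand, 2983 bases apart, in an intron of Nfyc, which encodes a subunit of the CCAAT-binding factor NF-Y.

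RefSeq sequences on GRCm38.p6 were matched for 4 of the 6 members, without mir-30b and mir-30d. The mature 5p strands are shown because they carry the family's seed, here in capitals. The strand of miR-384-5p is added as the only other mature sequence among 1738 in the table with this seed.
miR-30a-5p: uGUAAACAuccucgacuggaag
miR-30e-5p: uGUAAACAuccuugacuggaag
miR-30c-5p: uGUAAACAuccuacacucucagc
miR-384-5p: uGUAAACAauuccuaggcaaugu

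The 5p strands of mir-30a and mir-30e differed at 1 of 22 positions, C13U, with positions counted from 1 at the 5′ end and the base of mir-30a first. Between mir-30a and mir-30c, 17 of 22 positions were identical, and the first 12 bases were shared by all 4 matched members. The 3p strands fell into 2 seed groups. Those of mir-30a and mir-30e shared the seed UUUCAGU and differed at 1 position, G18A, whereas those of mir-30c-1 and mir-30c-2 shared the seed UGGGAGA and differed at 3 positions.

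The hairpins of mir-30c-1 and mir-30c-2 are shown because their mature 5p strand is the same. The shared stretch of 28 bases is in capitals.
mir-30c-1 hairpin: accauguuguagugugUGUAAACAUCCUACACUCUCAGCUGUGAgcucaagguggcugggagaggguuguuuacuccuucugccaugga
mir-30c-2 hairpin: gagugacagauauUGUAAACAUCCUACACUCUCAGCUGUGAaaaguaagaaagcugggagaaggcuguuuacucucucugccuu

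A read of miR-30c-5p therefore cannot be assigned to 1 of the 2 genes, and it is not stated how such reads were counted or whether mismatches were allowed. The 5p and 3p strands of a precursor are not listed apart in the file. The levels of mir-30c-1 and mir-30c-2, and the sums of the 2 clusters that hold them, are uncertain to that extent.

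The total count was 2414132 to 3029524 in the vesicle libraries, 5181296 in OB and 6092460 in BM. Levels are given as the authors' normalized expression values, which are the counts multiplied by 1 constant per library. A level counts reads and not molecules, and the ligation of adaptors favours some miRNAs over others, so that an order of levels between members is an order of reads. The 2 replicate libraries differed by more than sampling noise, with a chi-square per degree of freedom of 93.3 in Myo-EVs and 15.9 in FFSS-Myo-EVs. Intervals for OB and BM are exact Clopper-Pearson 95% intervals and cover counting error only. The marker miRNAs of blood and mesenchymal cells followed the labels of the samples, and those of muscle did so in part. Blood cell miRNAs (mir-223, mir-142a, mir-150, mir-144 and mir-451a) summed to 20347.7 in BM, 175.7 in OB and between 10.8 and 50.9 in vesicles. Mesenchymal miRNAs (the mir-143, mir-145a, mir-199 and mir-214 entries) summed to 536436 in OB, 335112 to 437712 in vesicles and 22199 in BM. Each mesenchymal entry was lowest in BM, but the order of OB and vesicles differed between entries. Those of mir-199 and mir-214 were higher in OB than in every vesicle library. In contrast, mir-143 (269506 in OB, 274482 to 372549 in vesicles) and mir-145a (16583.5 in OB, 21558.8 to 25112.8 in vesicles) were lower in OB. The muscle miRNA mir-206 was between 1968.5 and 2610 in vesicles and at most 91.7 in the cells, whereas mir-1a-1 and mir-1a-2, which mark mature muscle, were at most 6 in any vesicle library and at 30.6 and 31.4 in BM, opposite to mir-206. The mir-133 entries were low but higher in Myo-EVs than in the cells. Means in Myo-EVs were 40.55 for mir-133b (OB 0.6, BM 0), 19.15 for mir-133a-1 (9.4, 1.2) and 18.75 for mir-133a-2 (8.3, 0.8). In FFSS-Myo-EVs, mir-133a-1 and mir-133a-2 averaged 7.2 and 5.2, below OB.

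All 6 members were detected in every library. In Myo-EVs the most abundant member was mir-30a, with a mean of 11653 ± 506 (SD, n = 2) and rank 29 among the 1006 entries, followed by mir-30d with 10446 ± 798 (SD, n = 2) and rank 32. The level of mir-30a exceeded that of mir-30d in each vesicle library and in OB, but not in BM. The least abundant member was mir-30b, with 501 ± 17.2 (SD, n = 2) and rank 131. In BM the order was another one, with mir-30d at rank 10 and mir-30a at rank 89. The summed level of the family was 45592.9 in BM, 38837 ± 347 (SD, n = 2) in FFSS-Myo-EVs, 34447 ± 1221 (SD, n = 2) in Myo-EVs and 24931.2 in OB. The order of the condition means was the same when mir-30c was counted once and with each of 3 other scalings. The steps between the conditions changed in size. Relative to Myo-EVs, the FFSS-Myo-EV sum was 1.13 on the authors' values, 1.09 with library totals and 1.03 with TMM or median-of-ratios scaling. That of OB was 0.724 on the authors' values and 0.956 with TMM.

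**Figure D1:**
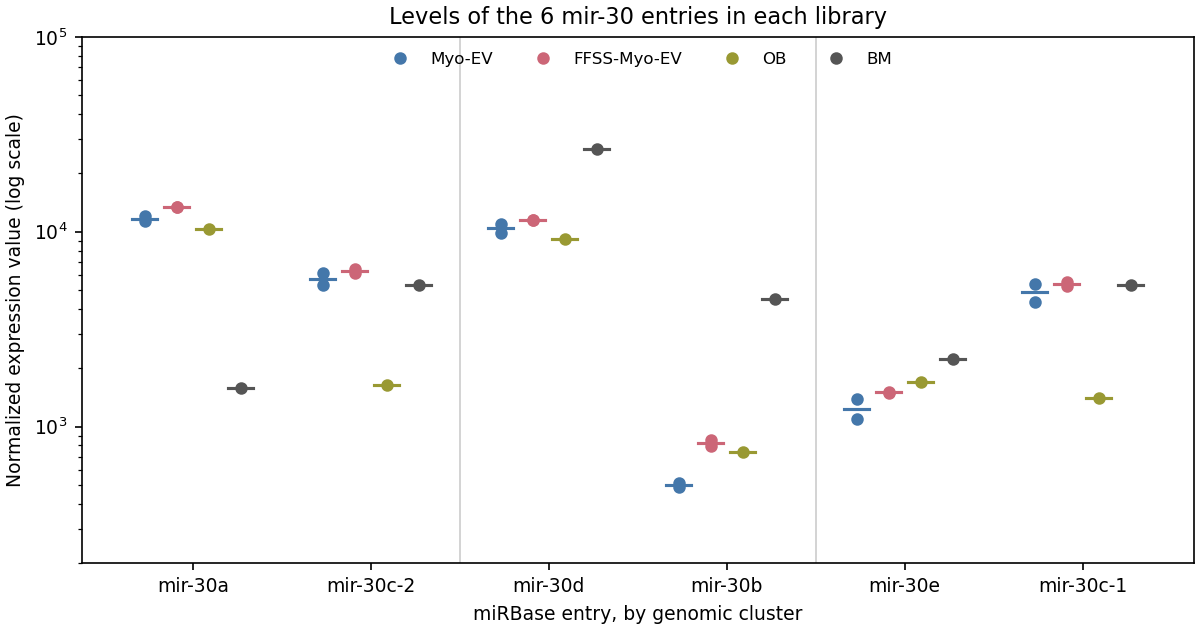
Normalized expression values of the 6 mir-30 entries on a log axis, with 1 point per library, a short line at the mean of each condition and grey lines between the genomic clusters. The BM points lie far below the others for mir-30a (1573.2) and far above them for mir-30b (4520.3) and mir-30d (26641), and the OB points lie lowest for both mir-30c entries.

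In the first cluster, mir-30a and mir-30c-2 were both at high level in vesicles and differed in the cells. The level of mir-30a was 12010.8 and 11295.3 in Myo-EVs against 13445.7 and 13368.8 in FFSS-Myo-EVs. It was 10270.7 in OB (95% interval 10124 to 10419) and 1573.2 in BM (1525 to 1623). Vesicles and osteoblasts were thus close to each other, with OB just below both Myo-EV libraries (above all vesicle libraries after TMM scaling), and BM was far below all of them. The level of mir-30c-2 was 6142.4 and 5323.7 in Myo-EVs against 6160.5 and 6415.8 in FFSS-Myo-EVs. It was 1638.5 in OB (1580 to 1699) and 5327.8 in BM (5238 to 5419). For mir-30c-2, OB stood apart as the lowest with each scaling, and BM lay within the range of the Myo-EV libraries on the authors' values but outside it with the 3 other scalings.

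In the second cluster, mir-30d exceeded mir-30b in every library, and both were highest in BM. The level of mir-30d was 9881.7 and 11010.2 in Myo-EVs, 11412.5 and 11432.9 in FFSS-Myo-EVs, 9186.1 in OB (9047 to 9327) and 26641 in BM (26441 to 26842). The vesicle and OB libraries lay close together, with OB the lowest on the authors' values and with library totals but not with TMM or median-of-ratios scaling. The level of mir-30b was 513 and 488.7 in Myo-EVs, 797 and 855 in FFSS-Myo-EVs, 736.7 in OB (698 to 777) and 4520.3 in BM (4438 to 4604). Myo-EVs were thus the lowest of the 4 conditions for mir-30b, and the OB value lay between those of the Myo-EV and FFSS-Myo-EV libraries, but above both after TMM or median-of-ratios scaling (1.94 and 1.59 times the Myo-EV mean).

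In the third cluster, mir-30e varied least of all members across the conditions relative to the family sum, whereas mir-30c-1 was low in OB. The level of mir-30e was 1380.3 and 1091.1 in Myo-EVs, 1495.3 and 1510.7 in FFSS-Myo-EVs, 1692.1 in OB (1633 to 1753) and 2217.9 in BM (2160 to 2277). With each scaling, OB lay above the vesicle libraries and BM above OB, whereas Myo-EVs and FFSS-Myo-EVs overlapped with TMM or median-of-ratios scaling. On the authors' values, the step from FFSS-Myo-EVs to OB was smaller than the SD of 204 between the Myo-EV libraries. The level of mir-30c-1 was 5382.5 and 4375.1 in Myo-EVs, 5280.9 and 5498.8 in FFSS-Myo-EVs, 1407.1 in OB (1353 to 1463) and 5312.7 in BM (5223 to 5403). For mir-30c-1, BM lay within the range of the vesicle libraries on the authors' values and with median-of-ratios scaling and above it with the other scalings, and OB was the lowest with each.

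The members with the largest shares of the family were the same in the 4 vesicle libraries. The share of mir-30a in the summed family values was between 33.6% and 34.8%, that of mir-30d between 28.0% and 32.8%, and that of both mir-30c entries together between 28.9% and 32.6%. The share of mir-30b was 1.45% and 1.46% in Myo-EVs against 2.07% and 2.19% in FFSS-Myo-EVs, without overlap. In OB, mir-30a made up 41.2% and mir-30d 36.8%, whereas the mir-30c entries made up only 12.2%. In BM, mir-30d alone made up 58.4% of the family and mir-30a 3.45%. When mir-30c was counted once, mir-30a remained the leading member in vesicles (40.0% in Myo-EVs and 40.6% in FFSS-Myo-EVs) and in OB (43.9%), and mir-30d in BM (66.2%).

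The summed level of the cluster of mir-30a and mir-30c-2 was 17386 ± 1085 (SD, n = 2) in Myo-EVs, 19695 ± 126 (SD, n = 2) in FFSS-Myo-EVs, 11909.2 in OB and 6901 in BM. That of mir-30d and mir-30b was 10947 ± 781, 12249 ± 55.4, 9922.8 and 31161.3 in the same order, and that of mir-30e and mir-30c-1 was 6115 ± 917, 6893 ± 165, 3099.2 and 7530.6. The first cluster thus held the largest share of the family in vesicles and OB (47.8% to 50.7% of the mean sums), and the second in BM (68.3%).

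**Figure D2:**
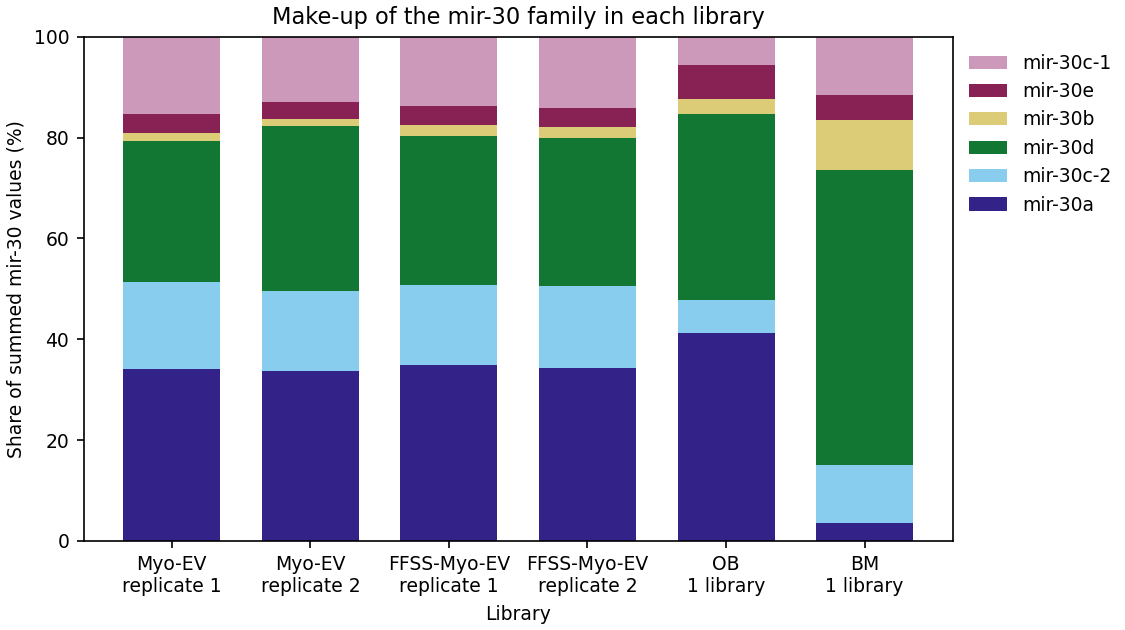
Stacked bars of the share of each member in the summed mir-30 values of a library, in percent, with the partners of a genomic cluster next to each other. In the 4 vesicle libraries mir-30a takes 33.6% to 34.8%, while it takes 41.2% in OB, and mir-30d takes 58.4% in BM.

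The first comparison asks what FFSS to C2C12 cells changes in the miRNAs of their vesicles. Of the 6 members, mir-30b was higher in FFSS-Myo-EVs and the other 5 did not pass the test. The mean of mir-30b rose from 501 ± 17.2 to 826 ± 41.0 (SD, n = 2 each), and the groups did not overlap. With edgeR (quasi-likelihood test, Benjamini-Hochberg adjustment over 354 tested entries), this was a log2 fold change of 0.59 with a standard error of 0.13 and an adjusted p = 0.000101, rank 51 from the highest. Among all tested entries, 30.5% were called, 12.1% as higher and 18.4% as lower, so that 1 of 6 members higher is close to that background. The split of 43 higher and 65 lower turned to 54 and 39 with the authors' scaling and 49 and 46 with library totals. No member was called lower, and 0 had an unadjusted p under 0.05 with a negative fold change in edgeR, in limma or in DESeq2. The call of mir-30b held in 15 of 15 alternative analyses, with log2 fold changes from 0.54 to 0.72 and adjusted p from 1.18e-06 to 0.0451 (edgeR, limma or DESeq2). In 4 of these, including the one with 0.0451, a group held 1 library, and the spread came from the other group alone. The p-values cover only differences between these libraries, since no source states that the replicates came from separate cultures. In edgeR the prior degrees of freedom were infinite. The spread behind each edgeR p-value was thus estimated from all tested entries together and was not that of the entry alone. The standard error still differed between entries (0.13 for mir-30e and 0.15 for mir-30a).

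For mir-30e, the mean was 1236 ± 204 (SD, n = 2) in Myo-EVs and 1503 ± 10.9 (SD, n = 2) in FFSS-Myo-EVs. The difference did not pass the test (edgeR, log2 fold change 0.15 ± 0.13 SE, adjusted p = 0.415). The size of the difference depended on 1 library, since the log2 fold change was 0.40 without replicate 1 of Myo-EVs and 0.039 without replicate 2. The former passed the test (edgeR, adjusted p = 0.0105), in which the lone Myo-EV library is assumed to vary like the FFSS-Myo-EV libraries. For mir-30a, the means were 11653 ± 506 and 13407 ± 54.4 (SD, n = 2 each) and the difference did not pass either (edgeR, log2 fold change 0.08 ± 0.15 SE, adjusted p = 0.768). The log2 fold changes of mir-30d, mir-30c-1 and mir-30c-2 were 0.0080, 0.012 and 0.0039, with standard errors of 0.13 to 0.15, and their sign changed with no filter on low values and without certain single libraries. A change of these 3 members was thus not detectable with this test, which used a spread estimated from all tested entries together.

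**Figure D3:**
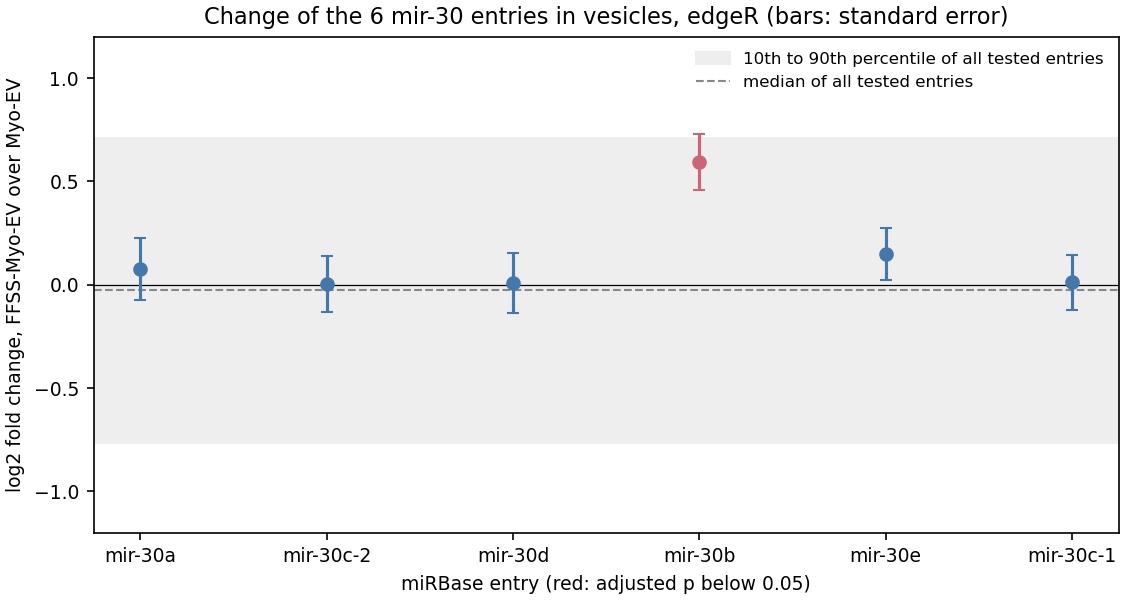
Log2 fold change of each mir-30 entry between FFSS-Myo-EVs and Myo-EVs with its standard error from edgeR, where the shaded band spans the 10th to the 90th percentile of the 354 tested entries (-0.77 to 0.71) and the dashed line marks their median (-0.025). Only mir-30b, in red, passed an adjusted p of 0.05, at 0.59.

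How many members separated the groups depended on the scaling. On the authors' values, FFSS-Myo-EVs lay above Myo-EVs without overlap in 5 of 6 members, all but mir-30c-1, against 36.7% of all tested entries, and below in none, against 23.7%. After TMM or median-of-ratios scaling this held for mir-30b alone, against 26.0% and 29.4% of all entries. Relative to TMM, the authors' scaling put FFSS-Myo-EVs higher by a median of 0.12 on the log2 scale, which is more than the TMM-based fold change of mir-30a, mir-30c-1, mir-30c-2 or mir-30d. A two-sided exact permutation test of 1 entry with 2 libraries against 2 cannot give a p below 0.333.

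Ratios between members of the same library do not depend on the scaling. The ratio of mir-30b to mir-30d, the partners on chromosome 15, was 0.0519 and 0.0444 in Myo-EVs against 0.0698 and 0.0748 in FFSS-Myo-EVs. It was thus 1.51 times as high in FFSS-Myo-EVs without overlap of the groups, and the fold was between 1.39 and 1.63 when each vesicle library was left out in turn. The exact permutation p was 0.333, the smallest that 2 against 2 libraries can give. The ratio was 0.0802 in OB and 0.170 in BM, so that Myo-EVs had the lowest and BM the highest ratio. The ratio of mir-30c-2 to mir-30a was 0.511 and 0.471 in Myo-EVs against 0.458 and 0.480 in FFSS-Myo-EVs, which overlapped. It was 0.160 in OB and 3.39 in BM, where mir-30c-2 exceeded mir-30a. The ratio of mir-30c-1 to mir-30e was 3.90 and 4.01 in Myo-EVs against 3.53 and 3.64 in FFSS-Myo-EVs, a fold of 0.907 without overlap (exact permutation p = 0.333). It was 0.832 in OB, the only condition in which mir-30e exceeded mir-30c-1, and 2.40 in BM.

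**Figure D4:**
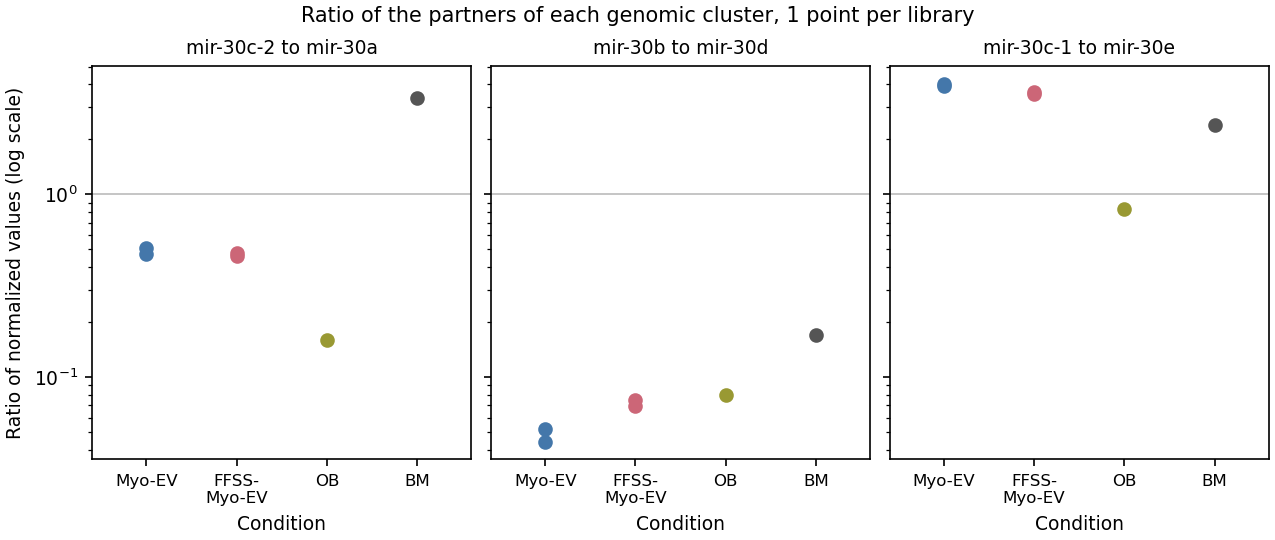
Ratio of the 2 partners of each genomic cluster in each library on a log axis, where the grey line marks equal values. The mir-30b to mir-30d ratio lies between 0.0444 and 0.0519 in Myo-EVs and between 0.0698 and 0.0748 in FFSS-Myo-EVs, and the mir-30c-2 to mir-30a ratio crosses 1 only in BM.

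Partners of a cluster were not the most alike members over the 4 conditions. Likeness was measured as the root mean square difference of log2 levels after each profile was centred on its own mean, for the 15 pairs of members. The smallest difference was 0.096, between mir-30c-1 and mir-30c-2. These share the mature 5p sequence, so this rank says nothing about the genes. The next was 0.41, between mir-30d and mir-30e of different clusters. The partners mir-30b and mir-30d ranked 3 with 0.66, mir-30e and mir-30c-1 ranked 6 with 0.89, and mir-30a and mir-30c-2 ranked 12 with 1.59. Partner pairs with a mir-30c entry cannot be judged as genes, since reads of miR-30c-5p cannot be assigned. Only the pair of mir-30b and mir-30d is free of this limit. The members mir-30a and mir-30b were the least alike, with 2.46.

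Some blood and serum miRNAs were also higher in FFSS-Myo-EVs, at levels near the floor. The erythroid miRNA mir-451a was 3 and 4.8 in Myo-EVs against 25.9 and 17.7 in FFSS-Myo-EVs, and the liver and serum miRNA mir-122 was 6 and 4.8 against 17.9 and 15.5. Both passed the test, and the call of mir-122 was lost with no filter and without certain single libraries. The 5 blood cell miRNAs together were 15 and 10.8 in Myo-EVs against 50.9 and 43.2 in FFSS-Myo-EVs. In FFSS-Myo-EVs mir-223 was 7 and 5.5 and mir-142a was 7 and 8.9, and in Myo-EVs mir-223 was 1 and 0 and mir-142a was 4 and 1.2. The groups did not separate for mir-150 (3 and 4.8 in Myo-EVs, 7 and 3.3 in FFSS-Myo-EVs) or mir-144 (4 and 0, then 4 and 7.8). Of the 5, only mir-451a was high enough to be tested. The floor of 3 counts is a level of 2.99 to 3.59 in the vesicle libraries. The summed blood cell miRNAs were higher by 34.2 on the normalized scale in FFSS-Myo-EVs and mir-30b by 325, whereas in BM the blood cell miRNAs were at 20347.7 and mir-30b at 4520.3. The part of blood or serum miRNAs in the difference of mir-30b was not tested.

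The second comparison sets the levels of the members in osteoblasts and bone marrow cells beside those in vesicles. OB and BM have 1 library each, so the differences have no replicate check and no test was made. In these bulk samples, fewer cells of a type and less RNA per cell cannot be told apart. Relative to the Myo-EV mean, no member was at least 2-fold higher in OB, against 38.1% of 444 entries with a mean of at least 10 over the 4 conditions, and 2 of 6 were at least 2-fold lower, against 34.2%. The 2 were mir-30c-1 and mir-30c-2, at 0.288 and 0.286 times Myo-EVs. They share a mature strand whose reads cannot be assigned to 1 gene, so they do not count as 2 independent members. The other ratios to Myo-EVs were 0.881 for mir-30a, 0.879 for mir-30d, 1.37 for mir-30e and 1.47 for mir-30b, of which those of mir-30a and mir-30d were on the other side of 1 (1.16 each) after TMM scaling. The median ratio was 0.880 for the 6 members and 1.10 for all entries.

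In BM, the members spread more widely around Myo-EVs. The level of mir-30b was 9.03 times and that of mir-30d 2.55 times Myo-EVs, and mir-30a was at 0.135 times. Thus 2 of 6 members were at least 2-fold higher, against 35.8% of all entries, and 1 was at least 2-fold lower, against 44.6%. The ratio of mir-30e was 1.79, and it was above 2-fold with total or TMM scaling (2.14 and 2.21). The ratios of mir-30c-1 and mir-30c-2 were 1.09 and 0.929, and both lay on either side of 1 depending on the scaling. The median ratio to Myo-EVs was 1.44 for the members and 0.686 for all entries.

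**Figure D5:**
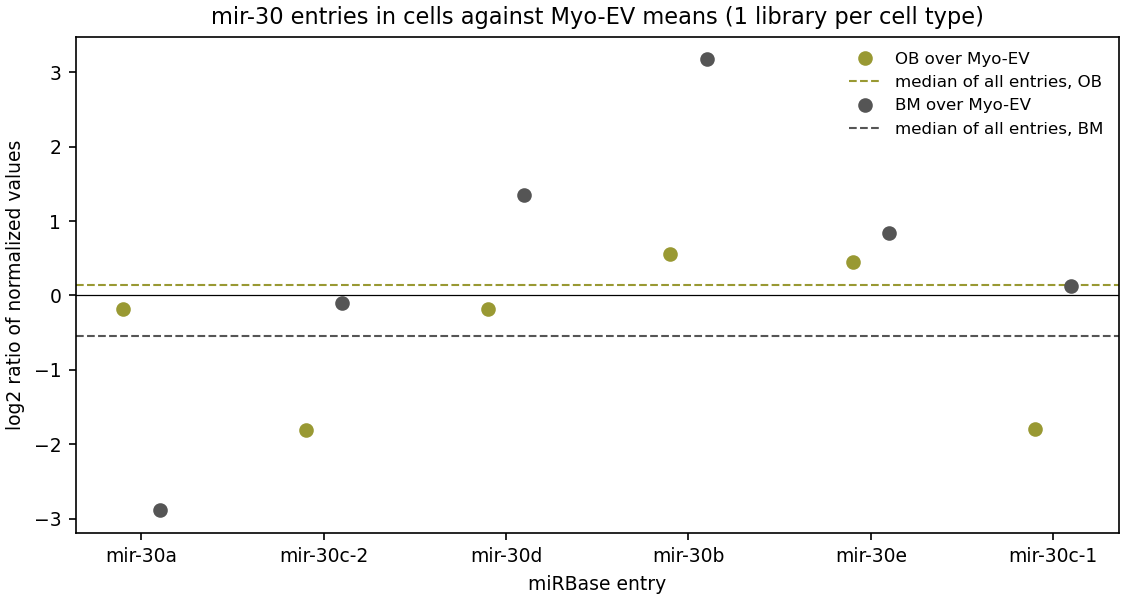
Log2 ratio of each mir-30 entry in OB and in BM to the Myo-EV mean on the authors' scaling, where dashed lines mark the median of 444 entries. BM spans from -2.89 for mir-30a to 3.17 for mir-30b, and the OB values of both mir-30c entries lie at about -1.8.

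Between the cells, mir-30a was 6.53 times as high in OB as in BM. In contrast, mir-30b, mir-30c-1, mir-30c-2 and mir-30d were at 0.163, 0.265, 0.308 and 0.345 times BM, and mir-30e at 0.763. At least 2-fold higher in OB was thus 1 of 6 members, against 33.6% of all entries, and at least 2-fold lower were 4 of 6, against 26.4%. These counts were the same with the 3 other scalings, under which mir-30a was between 5.52 and 7.73 times BM. Among the 4 lower members, mir-30c-1 and mir-30c-2 share a mature strand and are not independent of each other. FFSS-Myo-EVs held both mir-30c entries at 3.83 and 3.84 times OB and mir-30a at 8.52 times BM. In contrast, they held mir-30b at 0.183 times and mir-30d at 0.429 times BM.

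Some other entries carry the same seed or lie at the same locus. The entry mir-384, whose 5p strand has the seed of the family, had 4 and 3 counts in Myo-EVs, 4 and 12 counts in FFSS-Myo-EVs and 0 counts in OB and BM. The floor of 3 counts corresponds to a level of 1.66 in OB and 1.19 in BM, and the upper 95% limits of a count of 0 were 2.04 and 1.47. The entry mir-30f, named after its values were seen, is annotated at the same position as mir-30e on the opposite strand. Its mature sequence of 22 bases is the exact reverse complement of part of the mir-30e hairpin, and its seed is UAAACAU. Its level was between 127 and 163.9 in vesicles, 127 in OB and 188.3 in BM. The ratio of mir-30f to mir-30e lay between 0.0751 and 0.116 over the 6 libraries, and no source states whether the matching used the strand of the reads.

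The entries most like the sum of the family over the 4 conditions, among 126 others with a mean of at least 1000, were mir-93, mir-484, mir-101b, mir-24-2 and mir-106b, with root mean square differences of 0.18 to 0.27 on the log2 scale. The same 5 entries led with total scaling. For comparison, the level of mir-93 was 2892 in Myo-EVs, 3294 in FFSS-Myo-EVs, 1735 in OB and 2858 in BM. The likeness did not extend to the effect of FFSS for all of them. Unlike any mir-30 member, mir-484, mir-24-2 and mir-106b were called lower in FFSS-Myo-EVs (edgeR, log2 fold changes -0.44, -0.56 and -0.46). Those of mir-93 and mir-101b were 0.065 and 0.040 and were not called. The single members were less like the family sum than these entries, from 0.36 for mir-30e to 1.48 for mir-30a. Since the 5 entries were picked by this same measure among 126, that order is in part set by the choice.

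Other miRNAs known to act on the same proteins were taken as 2 lists. In these, the paired entries of mir-26a, mir-133a, mir-199a and mir-218 have the same mature strand and are uncertain in the way of mir-30c. Such pairs do not count as independent entries. The lists were chosen with earlier results of these data known. The paper's own selection of miRNAs elevated by FFSS in these libraries also names mir-23a, mir-26a, mir-155 and mir-199a. The counts may thus in part be set by the choice. In the list of miRNAs acting on Runx2, 12 entries were found and 6 were tested, of which 1 passed as higher in FFSS-Myo-EVs and 3 as lower, against 12.1% and 18.4% of all tested entries. The higher entry mir-23a was 1751.7 and 1923.5 in Myo-EVs against 2907.9 and 2879.5 in FFSS-Myo-EVs. The lower entries were mir-34c, the most abundant of the list in vesicles, and the low muscle entries mir-133a-1 and mir-133a-2. The level of mir-34c was 21091.4 and 26314.2 in Myo-EVs against 16754.1 and 17526.4 in FFSS-Myo-EVs, and that of mir-133a-1 and mir-133a-2 was at most 20.4 in any vesicle library. The median log2 fold change was -0.39 for the 6 tested and -0.025 for all tested entries. In the list of miRNAs acting on Smad1 or Smad5, 8 entries were found and 6 were tested. Of these, mir-155 and the paired entries mir-26a-1 and mir-26a-2 were higher and none was lower, against the same 12.1% and 18.4%. The median log2 fold change was 0.66, which is the value of the paired mir-26a entries (0.66 each). For mir-199a-1 and mir-199a-2, the log2 fold changes were 0.33 each (edgeR, adjusted p = 0.0853 and 0.0867), and each was called in 10 of 15 alternatives. The calls of mir-26a-1 and mir-26a-2 held in 14 of 15 alternatives and were lost without replicate 1 of FFSS-Myo-EVs, as were those of mir-23a and mir-34c. The call of mir-34c was also lost without replicate 2 of FFSS-Myo-EVs, and that of mir-133a-1 without either Myo-EV replicate or replicate 2 of FFSS-Myo-EVs. In OB the entry mir-204, which acts on Runx2, was 101.6, and it was at 1 or 0 in the vesicle libraries. In contrast, mir-338 was 306.2 in BM with 0 counts in every vesicle library.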

How the data were processed

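Per the paper's methods, total RNA (90 ng per the labels) was converted to libraries with the NEBNext Small RNA kit, and the reads were grouped and matched to miRBase in CLC Genomics Workbench. The authors deposited 1 table with raw counts per precursor entry, which are whole numbers, and normalized expression values, a signal obtained by scaling these counts with 1 constant per library (conversion to a common total, then scaling to means with 5% trimming). The submitters' processing notes name mm10. The miRBase release, mismatches and treatment of reads matching several precursors are not given in the sources used here.

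Samples were grouped by the titles in the labels. Counts of the 4 vesicle libraries were tested with edgeR 4.0.16 (R 4.3.3, TMM, quasi-likelihood test, Benjamini-Hochberg adjustment, threshold 0.05) over the 354 entries whose normalized values averaged at least 10. The standard error was taken from the fold change and the F statistic. Both groups leave 2 residual degrees of freedom, and the prior degrees of freedom were infinite. The authors gave no test for the sequencing data. On simulated counts, edgeR recovered 183 of 200 entries changed 2-fold among 354 and called 7 unchanged ones, limma 3.58.1 recovered 179 and DESeq2 1.42.0 recovered 146. The simulation gave every entry the same dispersion in both groups, with as many entries raised as lowered. It therefore does not give the rate of false calls in these data. Levels in OB and BM were compared as ratios. Python 3.11.15 with scipy 1.17.1 was used for intervals and exact permutation tests. For ratios between conditions on the authors' values, any level under that of 3 counts was raised to it. Ratios with the other scalings used no floor.

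The 6 members, every entry with their 5p seed, the 5 entries most like the family sum, and 2 lists of miRNAs acting on Runx2 or on Smad1 and Smad5 were named. The members and lists were chosen with earlier results of these data known. Alternatives were other size factors, filters and tools, all 6 libraries in 1 fit, the replicate block, merged mir-30c entries and each vesicle library left out. Positions came from GENCODE M21 and sequences from RefSeq.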

Additional observations from a re-analysis of the deposited data

How the results depend on the processing

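With edgeR, 43 entries were called higher and 65 lower in FFSS-Myo-EVs. Leaving out 1 vesicle library gave 19 to 60 higher, with 19 and 24 without the first and second FFSS-Myo-EV library, and 21 to 72 lower, with 25 and 21 without the same libraries. In these, the lone library is assumed to vary like the other group. The balance turned to more higher than lower with the authors' scaling (54 and 39), limma (57 and 37 at a pseudocount of 1, 56 and 37 at 10) and library totals (49 and 46). The replicate numbers are not stated to mark a shared batch, and the replicate block gave 44 higher and 66 lower and changed no call of a member, with mir-30b at 0.60 (adjusted p = 0.000317 in edgeR). Same-numbered libraries deviated together with a correlation of 0.209 over 354 entries.

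With 1 library left out, 1 to 2 members were called higher, 2 without the first Myo-EV library, where mir-30e had a log2 fold change of 0.40 (0.039 to 0.40). The sign reversed with no filter for mir-30c-1 (-0.037), mir-30c-2 (-0.045) and mir-30d (-0.044), and with 1 library left out their ranges were -0.082 to 0.24, -0.050 to 0.17 and -0.043 to 0.13. The cause was not tested. The sign of mir-30a, mir-30b and mir-30e did not reverse under any alternative run. The 5 members that separated the groups became 1 with TMM or median-of-ratios scaling and 3 with library totals.

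In the Runx2 list, 1 entry was called lower with a mean of at least 100 or with DESeq2, which gave no adjusted p to the mir-133a entries, and leaving out 1 library gave 0 to 1 higher (0 without the first FFSS-Myo-EV library) and 1 to 2 lower (1 without the second FFSS-Myo-EV library). In the Smad list, 5 were called higher with median-of-ratios, library totals, the authors' scaling, a mean of at least 100, DESeq2, limma at either pseudocount or all 6 libraries, and 1 to 5 with 1 library left out (1 without the first FFSS-Myo-EV library).

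The median ratio of the members to Myo-EVs was 1.16 (TMM) and 0.954 (median-of-ratios) in OB and 1.72 (total) and 1.77 (TMM) in BM, and that of OB to BM was 0.276 (total), 0.350 (TMM) and 0.386 (median-of-ratios). With 1 Myo-EV library left out, these medians were 0.872 to 0.892 in OB and 1.30 to 1.62 in BM. With mir-30c counted once, the shares of mir-30a, mir-30b, mir-30c, mir-30d and mir-30e were 40.0%, 1.72%, 18.2%, 35.9% and 4.23% in Myo-EVs, 40.6%, 2.50%, 17.7%, 34.6% and 4.55% in FFSS-Myo-EVs, 43.9%, 3.15%, 6.51%, 39.2% and 7.23% in OB, and 3.91%, 11.2%, 13.2%, 66.2% and 5.51% in BM.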
